A study of Mus musculus with 6 samples.

Results

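Transcripts of the histone demethylase gene Kdm6b and of 7 genes of Polycomb repressive complex 2 (PRC2) were followed in heart muscle cell preparations of the mouse. The 8 genes were taken by symbol from a deposited table of 22033 named genes, and all 8 were found once and passed the filter on low counts. RNA was sequenced from wild-type mice of postnatal day 21 that had received daily injections for 2 weeks, either of α-ketoglutarate at 300 mg per kg per day (AKG, 3 libraries) or of phosphate-buffered saline (Control, 3 libraries). Hearts were digested by the Langendorff method, through the perfused coronary vessels. The labels name day 21 both for the injected mice and for the isolation, so the age at the first injection is unclear. Nor do they tell how many mice gave 1 library, and p-values measure the spread between these libraries only.

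PRC2 places methyl groups on lysine 27 of histone H3 (H3K27), a mark of silenced genes. Ezh1 and Ezh2 are its alternative catalytic subunits, Eed reads the finished mark and stimulates the enzyme, Suz12 holds the complex together, Rbbp4 and Rbbp7 are histone-binding subunits, and Jarid2 is an accessory subunit that helps to bring the complex to chromatin. Kdm6b removes the mark and needs α-ketoglutarate as a cosubstrate, as other enzymes of its class do. Dividing cells typically hold more Ezh2 and resting adult tissue more Ezh1.

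The transcripts of both catalytic subunits were higher after AKG, that of Suz12 was slightly higher, and that of Kdm6b did not pass the test. Relative to the bulk of genes, Ezh1 rose 1.91-fold, Ezh2 1.62-fold and Suz12 1.22-fold, while Kdm6b had a fold of 1.10 that was not called. Of the 8 genes, 3 rose and 0 fell at an adjusted p under 0.05 in edgeR's quasi-likelihood test with Benjamini-Hochberg adjustment, against a background of 25.0% of all 13117 tested genes called higher and 25.2% called lower. At an unadjusted p under 0.05, 4 were higher and 0 lower, and DESeq2 and limma-voom each called 3 higher and 0 lower. The median log2 fold change of the 8 genes was 0.15, against 0.00 over all tested genes. In bulk preparations, fewer cells of a type and less RNA per cell cannot be told apart.

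The libraries held 14402876 to 17797368 counts, and levels are CPM, counts per 1e+06 of the library total after trimmed-mean scaling (TMM). The scaling matters for every gene here: with plain library totals the log2 fold change of the median gene was 0.45, 56.7% of genes were called higher and 9.12% lower, and 7 of the 8 genes were called higher and 0 lower. Members are set against like shares under the other settings: DESeq2 called 23.1% of all genes higher and 23.2% lower, limma-voom 24.6% and 25.5%, limma on log2(FPKM + 1) 58.0% and 9.28%, and on log2(FPKM + 0.1) 57.9% and 9.24%. With the replicate block the shares were 24.8% and 25.3%, with the atrial level as a covariate 15.8% and 16.7%, with AKG 2 alone 20.1% and 20.7%, and without AKG 2 23.0% in each direction. Defining transcripts of cardiomyocytes were abundant in all libraries: 10 genes, Myh6, Tnnt2 and Ryr2 among them, summed to 32513 to 36182 CPM in AKG and 57694 to 61995 CPM in Control libraries, none of them absent. The 6 atrial markers summed to 461 to 940 CPM in AKG and 92.1 to 151 CPM in Control libraries, so all AKG libraries stood apart on the whole list. Nppa, the natriuretic peptide gene, made up most of the sum in every library and was higher in all AKG libraries, at 499.6, 454 and 720.04 CPM in AKG 1, 2 and 3, against 139, 135 and 85.7 CPM in Control 1, 2 and 3. The others were Sln, Myl7, Myl4, Bmp10 and Mybphl. They summed to 359, 7.58 and 220 CPM in AKG 1, 2 and 3, against 6.40 to 12.0 CPM in the Controls. The atrial level used as a covariate is not this sum but the mean log2 CPM of the same genes, without Nppa. The Y-linked genes Uty, Eif2s3y, Ddx3y and Kdm5d together gave 89.2, 50.4 and 39.01 CPM in AKG 1, 2 and 3, against 168, 0.311 and 176 CPM in Control 1, 2 and 3, so Control 2 nearly lacked them.

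**Figure D1:**
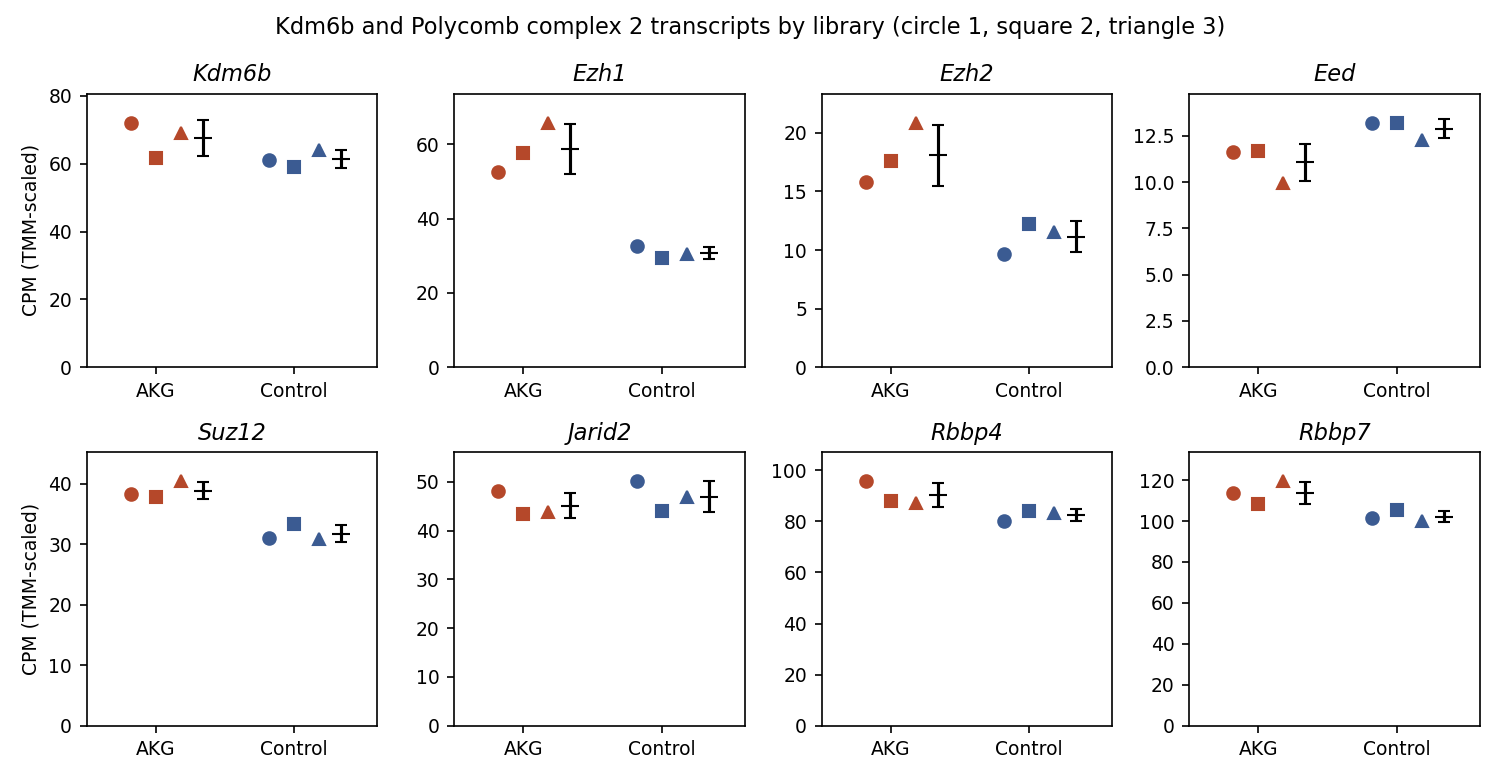
CPM of the 8 genes in each library (circle, square and triangle for libraries 1, 2 and 3), with the mean and SD of each group as a bar beside the points. All 3 AKG libraries lie above all 3 Controls for Ezh1, Ezh2, Suz12, Rbbp4 and Rbbp7, all 3 lie below them for Eed, and the groups overlap for Kdm6b and Jarid2. Over all tested genes, 29.4% have every AKG library above every Control and 29.9% have every one below.

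The sequence around the start of each gene that rose is shown because these genes moved in the same direction. RefSeq promoter windows on build GRCm38.p6, which run from 250 bases before to 50 bases after the gene start, were present for 7 of the 8 genes. They were searched on both strands for the E2F site TTTGGCGC and its variants TTTCCCGC, TTTCGCGC and TTTGCCGC, which can overlap each other, and for CCAAT. An E2F spelling was found for 2 of the 7 genes, Ezh2 and Suz12, and is given in capitals; 2.26% of 32851 windows of this length hold one. The windows lie at chr11:101226414-101226713 (minus strand), chr6:47594981-47595280 (minus strand) and chr11:79992856-79993155 (plus strand), and each is written 5′ to 3′ along its gene.
Ezh1: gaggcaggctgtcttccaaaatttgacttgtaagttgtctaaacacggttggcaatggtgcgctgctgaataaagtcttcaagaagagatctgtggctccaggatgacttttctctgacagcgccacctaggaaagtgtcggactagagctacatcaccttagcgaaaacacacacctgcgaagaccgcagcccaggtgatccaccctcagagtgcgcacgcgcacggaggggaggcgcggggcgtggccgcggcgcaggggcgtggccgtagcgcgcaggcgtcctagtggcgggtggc
Ezh2: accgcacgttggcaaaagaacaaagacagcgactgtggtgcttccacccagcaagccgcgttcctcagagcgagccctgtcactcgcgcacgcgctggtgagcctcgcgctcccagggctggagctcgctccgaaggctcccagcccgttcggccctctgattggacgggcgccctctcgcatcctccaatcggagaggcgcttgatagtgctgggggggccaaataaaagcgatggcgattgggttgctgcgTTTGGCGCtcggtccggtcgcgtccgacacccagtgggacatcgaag
Suz12: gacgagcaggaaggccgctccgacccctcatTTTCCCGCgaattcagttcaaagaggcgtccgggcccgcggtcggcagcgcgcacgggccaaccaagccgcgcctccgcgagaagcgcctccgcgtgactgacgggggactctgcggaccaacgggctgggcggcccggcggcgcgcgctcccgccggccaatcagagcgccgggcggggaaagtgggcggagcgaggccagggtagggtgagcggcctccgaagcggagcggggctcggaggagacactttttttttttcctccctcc
In Ezh2 the match begins 3 bases after the gene start and in Suz12 219 bases before it. CCAAT occurs in 37.4% of all windows and in those of 6 of the 7 genes. Ezh1, the gene with the largest rise among the 8, holds neither spelling in its window. A match in these letters is a description of the sequence and was not tested for binding.

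Ezh1, the catalytic subunit typical of resting tissue, stood at 52.6, 57.7 and 65.8 CPM in AKG 1, 2 and 3, against 32.6, 29.3 and 30.3 CPM in Control 1, 2 and 3. The lowest AKG library was well above the highest Control, and AKG 3 was the highest of all. The means were 58.7 ± 6.65 CPM after AKG and 30.7 ± 1.71 CPM in Control (SD, n = 3 each). The log2 fold change was 0.93 with an SE of 0.0946 and a 95% interval of 0.73 to 1.14 (edgeR quasi-likelihood adjusted p = 3.44e-06). AKG 2, where the atrial transcripts other than Nppa were in the Control range, lay between the other AKG libraries. AKG 2 alone against the Controls gave a log2 fold change of 0.92, with 1 library in its group. A gene without overlap between groups is common here, since for 29.4% of tested genes every AKG library lay above every Control.

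Ezh2, the catalytic subunit typical of dividing cells, had fewer counts than Ezh1. It stood at 15.8, 17.6 and 20.9 CPM in AKG 1, 2 and 3, against 9.66, 12.2 and 11.6 CPM in Control 1, 2 and 3. Every AKG library lay above every Control, as for 29.4% of tested genes, and AKG 3 was again the highest library. The means were 18.1 ± 2.57 CPM after AKG and 11.2 ± 1.33 CPM in Control (SD, n = 3 each), a log2 fold change of 0.70 with an SE of 0.134 and a 95% interval of 0.41 to 0.99 (edgeR quasi-likelihood adjusted p = 0.000735). The groups rested on 940 counts after AKG and 496 in Control over 3 libraries each. With log2(FPKM + 0.1) in place of counts the log2 fold change of Ezh2 was 1.29, on a scale where the median of all genes was 0.44.

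Transcripts of cell division stood beside this rise. Of 12 proliferation genes, 8 rose and 2 fell (9 and 1 with total counts as the scaling), against 25.0% and 25.2% of all tested genes. Mki67, a marker of cycling cells, averaged 130 ± 9.16 CPM after AKG and 70.1 ± 9.37 CPM in Control, and the mitotic cyclin gene Ccnb2 23.5 ± 2.58 and 8.69 ± 1.15 CPM. The replication genes Mcm2 and Pcna fell, by 1.42 and 0.64 on the log2 scale. The part of these genes in the level of Ezh2 was not tested.

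Suz12, the scaffold of the complex, stood at 38.3, 37.8 and 40.4 CPM in AKG 1, 2 and 3, against 31.1, 33.4 and 30.8 CPM in Control 1, 2 and 3. Every AKG library lay above every Control, as for 29.4% of tested genes, but the gap between the lowest AKG library and the highest Control was small. The means were 38.9 ± 1.36 CPM after AKG and 31.8 ± 1.38 CPM in Control (SD, n = 3 each), with a log2 fold change of 0.29, an SE of 0.0830 and an edgeR quasi-likelihood adjusted p of 0.0101. The call was lost with the atrial level as a covariate (log2 fold change 0.25, edgeR quasi-likelihood adjusted p = 0.133). With AKG 2 alone against the Controls the log2 fold change was 0.26.

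Eed, the reader of the methyl mark, was lower after AKG in every library comparison but did not pass the test. It stood at 11.6, 11.7 and 9.93 CPM in AKG 1, 2 and 3, against 13.2, 13.2 and 12.3 CPM in Control 1, 2 and 3. Every AKG library lay below every Control, as it did for 29.9% of tested genes. The log2 fold change was -0.22 with a 95% interval of -0.48 to 0.04 (edgeR quasi-likelihood adjusted p = 0.147). The direction depends on the scaling: the raw sums were 574 counts after AKG and 573 in Control, and with total counts as the scaling the log2 fold change was 0.22 (adjusted p = 0.151).

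The histone-binding subunits Rbbp4 and Rbbp7, which also serve in other chromatin complexes, were barely higher. Rbbp4 stood at 95.7, 87.9 and 87.2 CPM in AKG 1, 2 and 3, against 79.97, 84.1 and 83.4 CPM in Control 1, 2 and 3. Rbbp7 stood at 114, 108 and 119.4 CPM in AKG 1, 2 and 3, against 101, 105 and 99.8 CPM in Control 1, 2 and 3. For both genes the AKG libraries lay above the Controls by a few CPM, as 29.4% of tested genes lay above them, and neither passed the test. The log2 fold changes were 0.13 (95% interval -0.02 to 0.28) for Rbbp4 and 0.16 (0.00 to 0.31) for Rbbp7, with edgeR quasi-likelihood adjusted p of 0.147 and 0.0828. They are paralogs, and whether reads of one were counted for the other was not tested.

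Jarid2, the accessory subunit known for its part in heart development, did not separate the groups. It stood at 48.1, 43.4 and 43.9 CPM in AKG 1, 2 and 3, against 50.1, 43.9 and 46.9 CPM in Control 1, 2 and 3. The ranges overlapped over most of their width, and the log2 fold change was -0.06 with a 95% interval of -0.24 to 0.12 (edgeR quasi-likelihood adjusted p = 0.587). With total counts as the scaling it was 0.39 and called, below the median of 0.45 that all genes then had.

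Kdm6b, the demethylase, stood at 72.1, 61.6 and 69.0 CPM in AKG 1, 2 and 3, against 61.0, 58.9 and 64.2 CPM in Control 1, 2 and 3. AKG 2 lay within the Control range, and AKG 1 and AKG 3 lay above it. The log2 fold change was 0.14 with an SE of 0.0796 and a 95% interval of -0.03 to 0.31 (edgeR quasi-likelihood adjusted p = 0.163). Without AKG 2 it was 0.21 and passed (edgeR quasi-likelihood adjusted p = 0.0475), and with AKG 2 alone it was 0.01. Over the alternatives other than AKG 2 alone, the adjusted p ranged from 7.98e-05 with total counts to 0.923 with the atrial covariate. With total counts as the scaling Kdm6b was called higher at a log2 fold change of 0.59, and with the atrial level as a covariate it was 0.02.

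**Figure D2:**
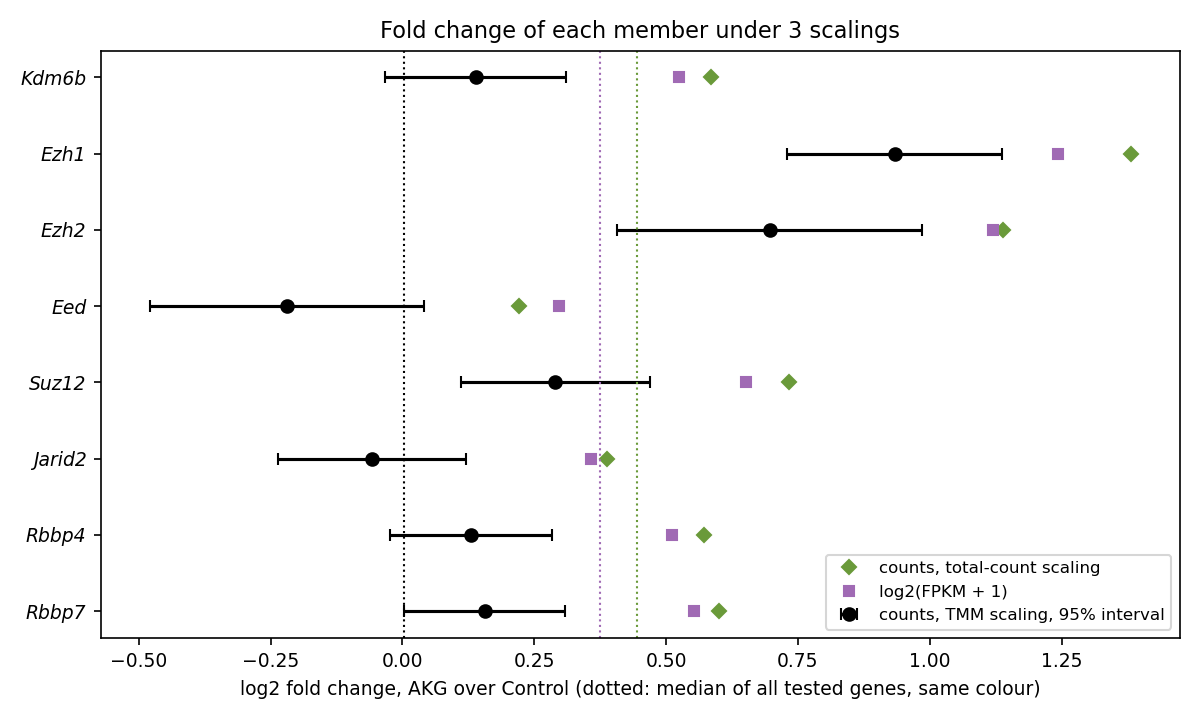
Log2 fold change of each gene, AKG over Control, from counts with the trimmed-mean scaling (black, with 95% intervals), from counts with total-count scaling (green) and from log2(FPKM + 1) (purple). Dotted lines mark the median of all tested genes on each scale, 0.00, 0.45 and 0.38. Kdm6b, Ezh1, Ezh2, Suz12, Rbbp4 and Rbbp7 lie to the right of it on all 3 scales, and Eed and Jarid2 to the left.

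The authors' deposited table, which compares FPKM and gives its own test, has the same 3 genes past a false discovery rate of 0.05. In the authors' deposited table the rate is 5.41e-14 for Ezh1, 0.000239 for Ezh2 and 0.0235 for Suz12, and 0.291 for Kdm6b. Its log2 ratios are larger, 1.38 for Ezh1, 1.32 for Ezh2, 0.73 for Suz12 and 0.58 for Kdm6b, and over all tested genes the authors' log2 ratios exceeded those from counts by a median of 0.44. Of all named genes, 16.3% are higher and 10.4% lower at that rate in the authors' deposited table.

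Levels can be compared between genes only per transcript length, as the deposited FPKM allow. In AKG libraries Rbbp7 had the highest level of the 8, at 63.3 ± 5.34 FPKM, followed by Rbbp4 at 23.9 ± 1.47 and Ezh1 at 16.7 ± 2.42 FPKM. Kdm6b at 11.9 ± 1.31, Suz12 at 10.4 ± 0.805, Ezh2 at 9.59 ± 2.14, Eed at 9.11 ± 0.754 and Jarid2 at 8.94 ± 0.572 FPKM overlapped with their neighbours in this order. In Control libraries the order of levels was Rbbp7 (42.8 ± 2.70 FPKM), Rbbp4 (16.5 ± 1.19), Kdm6b (7.90 ± 0.242), Eed (7.24 ± 0.731), Jarid2 (6.75 ± 0.205), Ezh1 (6.42 ± 0.211), Suz12 (6.25 ± 0.569) and Ezh2 (3.84 ± 0.706). Ezh1 thus stood above Kdm6b, Eed and Jarid2 in every AKG library (14.9 to 19.4 FPKM), whereas it stood below all 3 in every Control library (6.19 to 6.60 FPKM). In Control the ranges of Kdm6b, Eed, Jarid2, Ezh1 and Suz12 each overlapped with that next in the order, and Ezh2 was below all others in every Control library.

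Ratios between genes of the same library do not depend on how libraries are scaled, and they are given without a test because the genes were chosen as a set. The FPKM of Kdm6b over that of Ezh1 plus Ezh2 was 0.533, 0.437 and 0.402 in AKG 1, 2 and 3, against 0.778, 0.725 and 0.814 in Control 1, 2 and 3. The groups did not overlap, and the mean log2 ratio differed by -0.76 (-0.73 from counts). This ratio leaves out Kdm6a, another demethylase of the mark, so it does not stand for all erasers. Kdm6a averaged 13.1 ± 2.30 FPKM after AKG and 5.12 ± 2.18 FPKM in Control. The FPKM of Ezh1 plus Ezh2 over that of Suz12 was 2.31, 2.44 and 2.79 in AKG libraries, against 1.65, 1.599 and 1.68 in Controls. Over that of Eed it was 2.41, 2.57 and 3.78 in AKG libraries, against 1.46, 1.37 and 1.43 in Controls. The catalytic subunits were thus higher relative to both core partners in every AKG library, and the AKG libraries differed among themselves more than the Controls did. Jarid2 over Suz12 was 0.912, 0.854 and 0.819 in AKG libraries, against 1.17, 0.980 and 1.11 in Controls.

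The balance within the paralog pairs was less clear. Ezh1 over Ezh2 was 1.70, 1.96 and 1.61 in AKG 1, 2 and 3, against 2.07, 1.41 and 1.66 in Control 1, 2 and 3. The Control range enclosed the AKG range, so no shift between the catalytic paralogs was resolved in FPKM. The mean log2 ratio differed by 0.05 from FPKM and by 0.23 from counts, which do not hold the implied length of Ezh2. Rbbp4 over Rbbp7 was 0.403, 0.382 and 0.349 in AKG libraries, against 0.366, 0.376 and 0.412 in Controls, where AKG 3 lay below every Control and the other AKG libraries within their range.

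**Figure D3:**
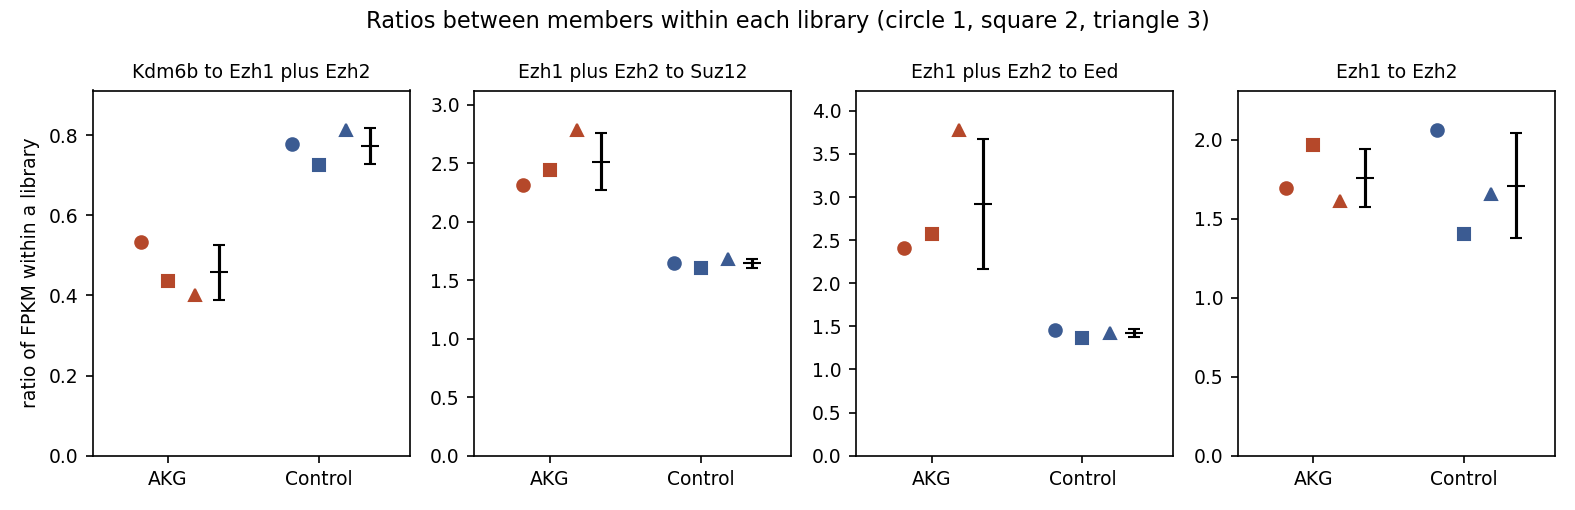
Ratio of FPKM between members within each library (circle, square and triangle for libraries 1, 2 and 3), with the mean and SD of each group. Kdm6b relative to Ezh1 plus Ezh2 is lower in every AKG library (0.402 to 0.533) than in any Control (0.725 to 0.814), Ezh1 plus Ezh2 is higher relative to Suz12 and Eed, and Ezh1 relative to Ezh2 overlaps.

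Counts and FPKM of a gene together give the transcript length that the authors' processing assigned to it in a library, here relative to the median gene of that library. For Kdm6b, Ezh1 and Suz12 this implied length hardly varied, as in Kdm6b with 2.32 to 2.34 in AKG libraries and 2.33 in all Controls. For Ezh2 it was 0.732, 0.860 and 0.743 in AKG 1, 2 and 3, against 0.880, 0.842 and 0.907 in Control 1, 2 and 3. AKG 1 and AKG 3 were below all Controls and AKG 2 was among them, with a mean log2 difference of -0.17 that was -0.25 without AKG 2 and -0.13 without AKG 1. Of 11037 genes with enough counts, 3.19% had a difference this low or lower. For Eed it was 0.481, 0.496 and 0.512 in AKG libraries, against 0.574, 0.516 and 0.518 in Controls, without overlap, as for 15.9% of those genes. Without Control 1 the mean log2 difference of Eed was -0.06, against -0.11 with all libraries. For Rbbp7 it was slightly higher without overlap, at 0.737, 0.725 and 0.741 in AKG libraries, against 0.717, 0.724 and 0.708 in Controls. For Rbbp4 it was 1.44 in Control 3 and 1.54 to 1.55 in the other libraries. An FPKM divides by this length, so the FPKM of these genes hold its differences as well as those of the counts. The isoforms behind these differences were not analysed here.

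**Figure D4:**
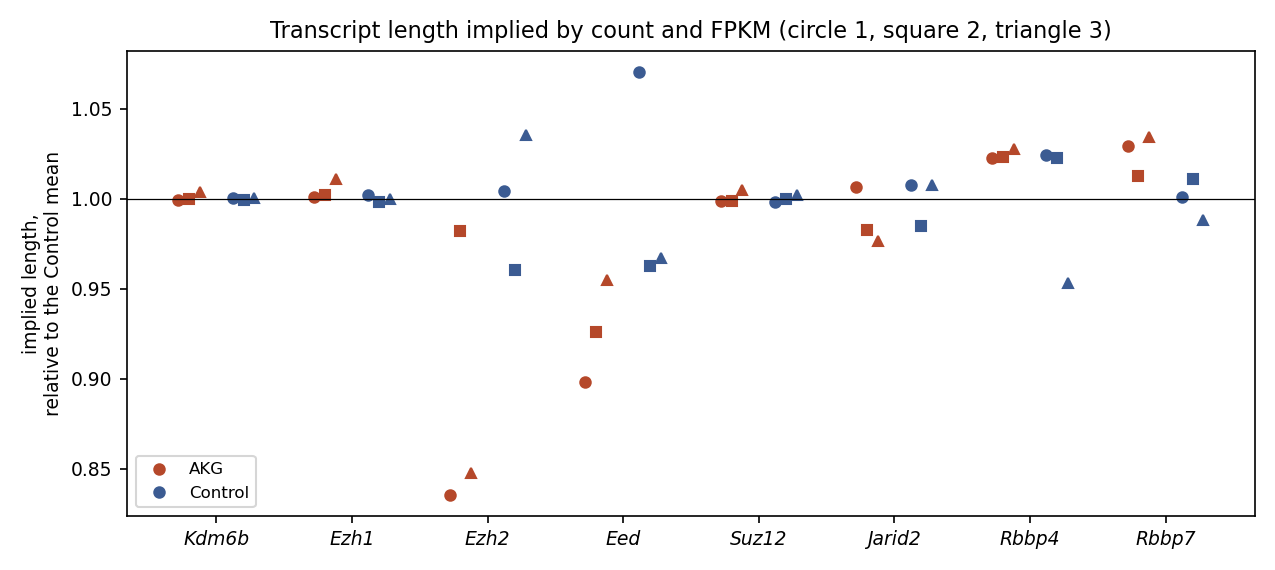
Transcript length implied by count and FPKM for each gene and library, divided by the gene's Control mean (AKG left and Control right of each position). Kdm6b, Ezh1 and Suz12 stay near 1 in all 6 libraries, and Ezh2 is short in AKG 1 and AKG 3. Eed is shorter, and Rbbp7 slightly longer, in all AKG libraries than in any Control.

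The relatives of Kdm6b in the same family are Kdm6a, an X-linked demethylase of the same mark that escapes X inactivation, and Uty, its Y-linked counterpart. Kdm6a stood at 37.8, 42.7 and 45.9 CPM in AKG 1, 2 and 3, against 17.6, 36.6 and 19.7 CPM in Control 1, 2 and 3. Uty stood at 8.15, 3.35 and 4.94 CPM in AKG 1, 2 and 3, against 22.7, 0 and 22.6 CPM in Control 1, 2 and 3. Control 2, which held no Uty count, was the Control closest to the AKG libraries in Kdm6a. The log2 fold change of Kdm6a was 0.77 (edgeR quasi-likelihood adjusted p = 0.0900), and 1.18 without Control 2 (adjusted p = 2.01e-05), where the sex of the mice and the treatment cannot be told apart. With the mean log2 CPM of the Y-linked genes as a covariate Kdm6a had a log2 fold change of 0.996 (edgeR quasi-likelihood adjusted p = 1.18e-05). With that covariate Ezh1 and Ezh2 were still called, at log2 fold changes of 0.92 and 0.74, and Kdm6b was at 0.12 without passing.

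The other accessory subunits of PRC2 were mostly not called, where 25.0% of all tested genes were called higher and 25.2% lower. Of 6 tested, 1 rose and 0 fell, and at an unadjusted p under 0.05, 2 were higher and 0 lower; DESeq2 called 1 higher and limma-voom 2, and neither called any lower. Their median log2 fold change was 0.02. The riser was Lcorl, which encodes a PALI-type cofactor, at 21.01 ± 2.43 CPM after AKG and 15.9 ± 2.12 CPM in Control (edgeR quasi-likelihood adjusted p = 0.0164), and it did not pass without AKG 1 (0.0610), without Control 3 (0.0839) or with the atrial covariate (0.173). Its paralog Lcor averaged 12.7 ± 0.401 CPM after AKG and 9.996 ± 1.86 CPM in Control (adjusted p = 0.0553). The Polycomb-like subunit gene Mtf2 (21.2 ± 1.40 CPM after AKG, 22.3 ± 0.829 CPM in Control) and Aebp2, a partner of Jarid2 (42.5 ± 2.39 and 40.8 ± 5.01 CPM), did not pass. Epop had 18 counts over the AKG libraries and 32 over the Controls, and Ezhip, an inhibitor of the complex, had 0 counts in all 6 libraries. With total counts as the scaling 5 accessory genes were called higher and 0 lower.

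Polycomb complex 1 (PRC1) reads the mark of PRC2 and attaches ubiquitin to histone H2A. Of its 28 genes, all tested, 14 rose and 5 fell, with a median log2 fold change of 0.30. The shares over all tested genes were 25.0% higher and 25.2% lower. With total counts as the scaling 22 were higher and 2 lower, against 56.7% and 9.12% of all tested genes. The scaffold gene Phc1 rose to 26.95 ± 1.18 CPM after AKG, against 13.1 ± 1.21 CPM in Control. The ubiquitin ligase gene Rnf2 rose to 37.0 ± 1.35 CPM, against 19.7 ± 2.08 CPM in Control. Kdm2b, which brings a variant of the complex to unmethylated CpG islands, rose to 23.6 ± 0.875 CPM, against 12.9 ± 1.77 CPM in Control (edgeR quasi-likelihood adjusted p = 2.94e-06, 5.59e-06 and 3.52e-05 for Phc1, Rnf2 and Kdm2b). E2f6, a repressor found in another variant, fell to 23.3 ± 2.51 CPM after AKG, against 38.3 ± 1.88 CPM in Control. The number that fell depended on the tool, since DESeq2 called 13 higher and 3 lower, against 23.1% and 23.2% of all tested genes.

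Genes of enzymes that work with or against PRC2 on the same nucleosomes were called in both directions. So were all tested genes, with 25.0% higher and 25.2% lower. In the BAP1 complex, which removes the ubiquitin of PRC1, 4 of 8 genes rose and 1 fell (7 and 0 with total counts as the scaling). The BAP1 partner gene Asxl1 rose to 74.7 ± 4.98 CPM after AKG, against 46.4 ± 1.62 CPM in Control, with rises of 0.76 for Mbd5 and 0.75 for Foxk1 on the log2 scale, and Foxk2 fell by 0.34, a call lost without Control 1 (edgeR quasi-likelihood adjusted p = 0.0593) or with the atrial covariate (0.0731) and a value above 0 with total counts. The acetyltransferase genes Crebbp and Ep300, whose acetyl mark on the same lysine excludes methylation, both rose, by 0.42 and 0.30 on the log2 scale (edgeR quasi-likelihood adjusted p = 0.000569 and 0.00690). Of 5 genes for methyltransferases of lysine 36, a mark that hinders PRC2, 3 rose and 0 fell, also by DESeq2, limma-voom and at an unadjusted p under 0.05, and 5 and 0 with total counts as the scaling. They were Setd2 (79.1 ± 8.06 CPM after AKG, 57.5 ± 2.77 CPM in Control), Nsd2 and Ash1l, while Nsd3 averaged 57.1 ± 2.08 and 52.1 ± 5.02 CPM without passing. Of 8 tested genes of the MLL3/4 complex, the home of Kdm6a, 2 rose and 2 fell (6 and 0 with total counts as the scaling, 2 and 1 by DESeq2). Its methyltransferase gene Kmt2d fell to 147 ± 20.0 CPM after AKG, against 224 ± 17.8 CPM in Control, and Rbbp5 fell by 0.27, a value above 0 with total counts and not called by DESeq2 (adjusted p = 0.0879), while Ash2l and Ncoa6 rose by 0.37 and 0.26 on the log2 scale.

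**Figure D5:**
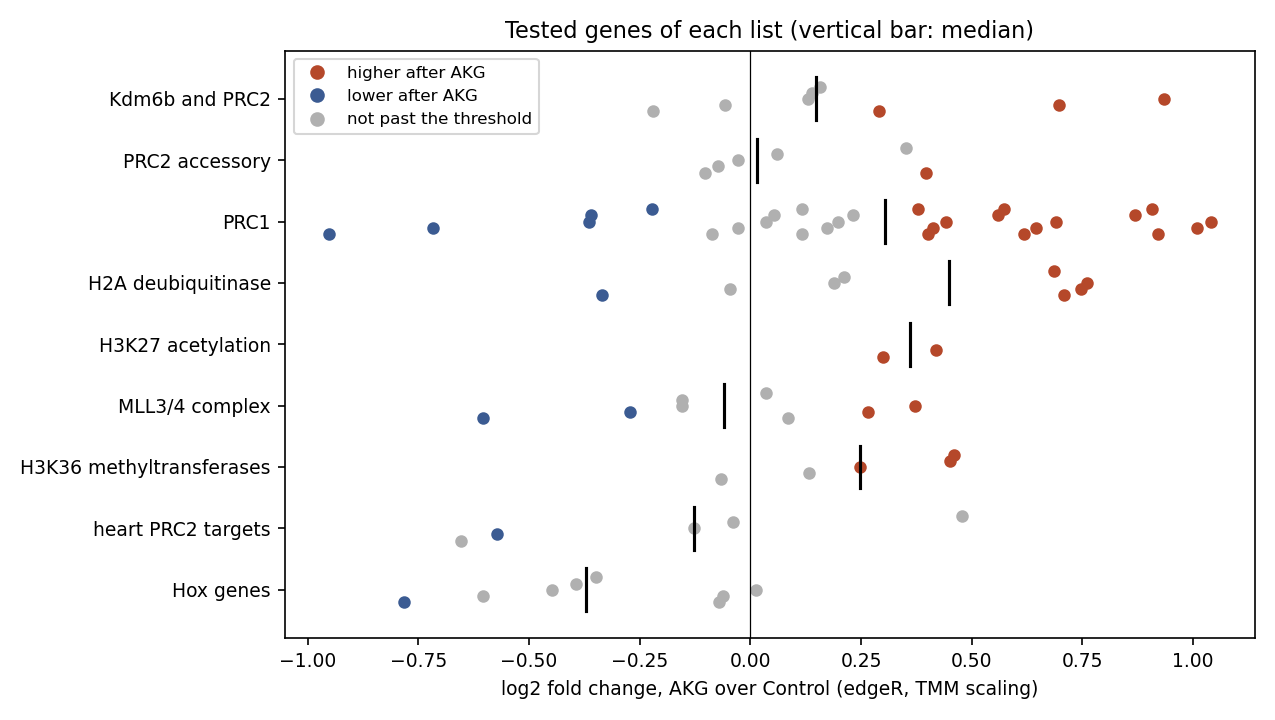
Log2 fold change (AKG over Control) of each tested gene in 9 lists of Polycomb and related genes, coloured by whether the gene passed an adjusted p of 0.05, with the median of each list as a vertical bar. PRC1 has 14 higher and 5 lower of 28 genes. The Hox genes have 0 higher and 1 lower of 8 tested, and the heart targets of PRC2 0 and 1 of 5 tested. Over all tested genes, 25.0% were called higher and 25.2% lower.

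Of genes listed as targets of Polycomb, many were too low to be tested, though Tbx3 averaged 20.4 CPM after AKG and 22.2 CPM in Control. Whether the low genes were silenced by Polycomb was not tested. Over all tested genes, 25.0% were called higher and 25.2% lower. Of 39 Hox genes, classical targets of the mark, 18 had no count in any AKG library and 19 none in any Control, and 8 were tested. Of these, 0 rose and 1 fell, Hoxa3, at 1.498 ± 0.370 CPM after AKG and 2.57 ± 0.472 CPM in Control (edgeR quasi-likelihood adjusted p = 0.0386), and DESeq2 called 0 in either direction. Hoxb4, Hoxd4 and Hoxa2 had log2 fold changes of -0.35, -0.60 and -0.45 and did not pass. At an unadjusted p under 0.05 the Hox count was the same, 0 higher and 1 lower, and with total counts as the scaling it was 0 and 0. Of 10 genes listed, from background knowledge, as higher in mouse hearts that lack Ezh2 or Eed, 5 were tested, 0 rose and 1 fell, also by DESeq2, limma-voom and at an unadjusted p under 0.05, and 2 and 0 with total counts as the scaling. The developmental regulator gene Eya1 stood at 1.27 ± 0.0801 CPM after AKG and 0.929 ± 0.497 CPM in Control without passing. The pacemaker channel gene Hcn4 fell by 0.57 on the log2 scale, a call lost without Control 2, without AKG 2 or with total counts as the scaling, and Tbx3 had a log2 fold change of -0.13. Isl1 had 4 counts over the AKG libraries and 0 over the Controls, Pax6 5 and 1, Cdkn2a 6 and 6 and Cdkn2b 11 and 4. Bmp10, a growth factor gene of the atrium, had 809, 1 and 286 counts in AKG 1, 2 and 3, against 0, 1 and 0 in Control 1, 2 and 3, high in the same libraries as the summed atrial transcripts other than Nppa.

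Markers of other cell types moved as follows beside these results, and their part in them was not tested. Summed levels of 10 markers each were 1877 to 2470 CPM in AKG and 1928 to 2469 CPM in Control libraries for fibroblasts, and 2388 to 2980 CPM in AKG and 2717 to 2985 CPM in Control libraries for endothelial cells. For smooth muscle cells and pericytes they were 1412 to 1609 CPM in AKG and 2328 to 2549 CPM in Control libraries, and for macrophages 90.6 to 117 CPM in AKG and 137 to 213 CPM in Control libraries. Lymphocyte markers summed to 2.27 to 3.82 CPM in AKG and 7.29 to 10.9 CPM in Control libraries, and neutrophil markers to 8.09 to 15.1 CPM in AKG and 2.17 to 2.72 CPM in Control libraries. Of these lists, all 5 tested neutrophil markers rose, and the calls of the others were mixed or mostly lower: 3 higher and 4 lower for fibroblasts and also for endothelial cells, 1 and 6 for mural cells, 0 and 4 for macrophages and 0 and 3 for lymphocytes. Of the cardiomyocyte markers 0 rose and 7 of 10 fell. All these counts stand against 25.0% of all tested genes called higher and 25.2% called lower. These counts depend on the scaling: with total counts, 3 were higher and 2 lower for fibroblasts, 6 and 1 for endothelial cells, 3 and 2 for mural cells, 1 and 2 for macrophages, 0 and 3 for lymphocytes, 5 and 0 for neutrophils, and 3 and 4 for cardiomyocytes. With that scaling 56.7% of all tested genes were called higher and 9.12% lower.

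The profile of each enzyme gene over the 6 libraries was compared with those of 8664 genes at a mean of 10 CPM or more. These correlations rest on 6 libraries that share the group difference, and they are descriptions. Ezh1 was most like Cfap418, Mturn and Sorbs2, each with a Pearson r of log2 CPM of 0.999, and 1459 genes exceeded an r of 0.9 with it. Tarsl2 and Paics were among the genes most like Ezh2 (0.997 each), with 1062 genes above 0.9. Kdm6b was most like Hspa13, Paip1 and Tada2b (0.974, 0.963 and 0.958), with 34 genes above 0.9.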

How the data were processed

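The authors deposited counts and FPKM values (fragments per kilobase of transcript and depth) per gene and library in one table, with a mean FPKM per group, a log2 fold change and a p-value with its false discovery rate. The submitters' processing notes name HISAT2 2.1.0, RSEM 1.2.19 and DESeq2 1.20.0; their roles, the genome build and the annotation are not given in the sources used here. All deposited counts were whole, and 60 entries of 0 stood beside an FPKM above 0, as rounded estimates would. Rows without a symbol (30, with 3.95e-05% of counts) were left out.

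The counts were fitted with edgeR 4.0.16 in R 4.3.3, using filterByExpr (minimum count 10, minimum total 15), scaling by the trimmed mean of M-values, and the robust quasi-likelihood test of AKG against Control, adjusted over 13117 genes by the Benjamini-Hochberg method at 0.05. Each SE was taken as the fold change on the log2 scale over the root of its F statistic. The steps were tested on simulated data in which few genes changed, equally many up and down. That setting differs from these data and does not test the choice of scaling. Alternatives used DESeq2 1.42.0, limma 3.58.1 on voom weights and on log2 FPKM (FPKM of 1 or more in 3 libraries, pseudocounts of 1 and 0.1), other scalings and filters, the replicate number as a block, covariates, AKG 2 alone, and each library left out. The pseudocount understates the change of low genes.

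The members and lists were chosen with earlier results of these data known. Named genes were the members, Kdm6a, Uty, the 4 smallest p-values of each list and, for Kdm6b, Ezh1 and Ezh2, the 3 most similar profiles. Epop, Ezhip and the untested heart targets were named after their values had been seen, and the implied length, counts divided by FPKM over the median gene of the library (mean count of 50 or more, FPKM above 0.5), was added then. Some genes chosen by the rule for named genes are not reported here.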

Additional observations from a re-analysis of the deposited data

How the results depend on the processing

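Of the 21 alternatives, that with AKG 2 alone leaves 1 library in its group, so its calls are not counted here. Under the others, 0 of the 8 genes were called lower, and 3 were called higher except in the following. The count was 7 with total counts as the scaling, 8 on log2(FPKM + 1) and 8 on log2(FPKM + 0.1), 2 with the atrial covariate, and 4 without AKG 2. Ezh1 and Ezh2 were called higher in every alternative counted, with log2 fold changes of 0.85 to 1.38 and 0.58 to 1.29. The higher and lower counts over all genes were 7431 and 1196 with total counts, 6722 and 1075 on log2(FPKM + 1), 6709 and 1070 on log2(FPKM + 0.1), and 2071 and 2190 with the atrial covariate. Kdm6b passed at 0.59, 0.52 and 0.57 with total counts and the FPKM scales with pseudocounts of 1 and 0.1, and ranged from 0.098 to 0.209 with a library left out. In that order of settings, values that turned positive were 0.22, 0.30 and 0.33 for Eed, 0.39, 0.36 and 0.40 for Jarid2, 0.37, 0.46 and 0.53 for Mtf2, 0.11, 0.096 and 0.111 for Foxk2, 0.17, 0.15 and 0.18 for Rbbp5 and 0.31, 0.25 and 0.30 for Tbx3. In these settings the middle gene stood at 0.45, 0.38 and 0.44 in the same order, against 0.00 with the trimmed-mean scaling. Mitochondrially encoded genes held 25.7 to 31.4% of counts in AKG and 38.3 to 43.1% in Control libraries. The part of this difference in the move of the middle gene was not tested. With total counts Hoxb4 was at 0.090. The cause of the remaining reversals was not tested either. Uty was at 1.31 with limma-voom and 0.35 on log2(FPKM + 0.1). Aebp2 was at -0.0299 with the atrial covariate, -0.017 with AKG 2 alone and -0.0181 to 0.159 with a library left out. Tbx3 was at 0.011, 0.039 and -0.205 to 0.00346 in the same settings as Aebp2. With a library left out, the Ezh1 to Ezh2 difference ran from -0.0790 to 0.199 and that of Rbbp4 to Rbbp7 from -0.074 to 0.029.

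Deviations from the group mean correlated weakly between same-numbered libraries (r = 0.20, -0.07 and 0.07). Libraries of different number were not compared, so this does not settle whether the numbers pair them. With the replicate block 3257 genes were higher and 3314 lower, Ezh1 was at 0.93, Ezh2 at 0.69 and Kdm6b at 0.14, and among the genes named Kdm6a passed (0.83, edgeR quasi-likelihood adjusted p = 0.0226). Kdm6a also passed with DESeq2 (adjusted p = 0.0491). Depth limits Eed and Ezh2 most among the 8, with 574 and 940 counts over the AKG libraries and 573 and 496 over the Controls, and the 3 libraries per group limit all.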
